A study of Homo sapiens with 12 samples.

Results

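The 10 receptor tyrosine kinase genes known from glioma, other than the ERBB family, were followed in the glioblastoma lines LN229 and U251, both long established from human tumours: PDGFRA, PDGFRB, KIT, KDR, MET, AXL, FGFR1, FGFR2, FGFR3 and FGFR4. They were picked out by gene symbol, with no threshold on a measured value but with earlier results of these data known, and all 10 were found among the 58174 genes of the deposited tables. Cells of each line had been reverse transfected with siRNA against XRN2 (siXRN2) or with a control siRNA (siNT), or had been mock transfected. Each of the 6 groups held 2 libraries, 12 in all, of RNA taken after 72 hours. XRN2 encodes a nuclear exoribonuclease that is known to degrade transcripts from their 5′ end and to take part in ending transcription. The design asks what changes in each line when it is depleted. The labels give no genotype for the lines, and these were grown in different media with different shares of serum, so line and culture medium cannot be told apart in any comparison between them.

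Receptor tyrosine kinases are membrane proteins that bind a growth factor outside the cell, pair up and phosphorylate each other, which recruits adaptors of the RAS-MAPK and PI3K pathways. In glioblastoma several of them are often active in the same tumour, and PDGFRA, KIT and KDR, neighbours on chromosome arm 4q, are known to be gained together in some tumours. KDR and KIT are best known from endothelial cells and from mast cells and melanocytes, whereas AXL and MET are known from migrating and mesenchymal-like tumour cells.

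Exon reads numbered 4846768 to 7469052 per library. Levels are given as counts-per-million (CPM) scaled by trimmed mean of M-values, and where no read was found the level may still be as high as that of 3 reads, 0.381 to 0.605 CPM depending on the library, a limit for counting error only. XRN2 itself stood at 33.5 and 25.6 CPM in LN229 siXRN2, against 202 and 243 CPM in siNT and 229 and 235 CPM in mock. In U251 it stood at 31.1 and 26.2 CPM in siXRN2, against 144 and 134 CPM in siNT and 138 and 143 CPM in mock. XRN2 RNA was thus at 13.3% of its siNT level in LN229 and 20.5% in U251. Replicates of LN229 siNT and of U251 mock differed most, with a chi-square per gene of 18.4 and 26.0, against 1.72 to 7.30 in the other 4 pairs. The first LN229 siNT library had the fewest exon reads, 4846768. Introns held 5.58% of its gene reads, against 7.60% to 9.55% in the other libraries. It is part of every LN229 comparison with siNT and of the LN229 control averages. Nothing in the labels says that replicates came from separate cultures; the p-values therefore describe the spread between libraries, which may be technical.

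The glial identity of the lines was uneven. The astrocyte filament gene GFAP averaged 3.11 ± 1.33 CPM in LN229 controls and 4766 ± 1738 CPM in U251 controls (SD, n = 4 each, siNT and mock together), and the glial factor SOX9 averaged 2.76 ± 0.66 CPM in LN229 controls and 309.8 ± 61.4 CPM in U251 controls. Other glial markers went the opposite way: S100B averaged 374 ± 130.3 CPM in LN229 controls and 19.6 ± 3.25 CPM in U251 controls, and OLIG2, a factor of the oligodendrocyte lineage, averaged 8.48 ± 1.39 CPM in LN229 controls and 0.0404 ± 0.0807 CPM in U251 controls. Of the 9 astroglial and neural stem markers, 7 passed the filter on low counts described below, of which 3 were higher and 4 lower in LN229, while ALDH1L1 was at 0 in the controls of both lines. Of the 7 endothelial markers, 4 passed the filter, and these did not move one way. PECAM1 and ESAM were higher in LN229, with PECAM1 at 0 in U251 controls, whereas CDH5 averaged 0.349 ± 0.242 CPM in LN229 controls and 2.41 ± 0.363 CPM in U251 controls. EMCN was at 0 in the controls of both lines, and the summed level of the 7 was 5.08 to 7.04 CPM in LN229 controls and 4.40 to 5.46 CPM in U251 controls. The mast cell tryptases TPSAB1 and TPSB2 were at 0 in all 12 libraries. CPA3 and MS4A2 were at 0 in LN229 controls but not in U251 controls. Of the 7 blood and mast cell markers, 1 passed the filter, and it was lower in LN229, with a log2 fold change of -2.69. The 7 summed to 7.87 to 10.1 CPM in LN229 controls and 48.0 to 64.6 CPM in U251 controls. Of the pericyte and fibroblast markers, CSPG4 averaged 399.7 ± 60.1 CPM in LN229 controls and 1.35 ± 0.364 CPM in U251 controls, and COL1A1 averaged 325 ± 58.4 CPM in LN229 controls and 6.04 ± 1.34 CPM in U251 controls. Their part in the differences between the lines was not tested.

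The lines differed in which receptors they expressed. With siNT and mock libraries as controls, 5 of the 10 genes were higher in LN229 (KIT, FGFR4, FGFR1, PDGFRB and FGFR3) and 3 were lower (PDGFRA, KDR and MET), while AXL stood at about the same high level in both and FGFR2 had too few reads to test. The test was edgeR's quasi-likelihood F-test over all 14232 genes that passed the filter on low counts, with Benjamini-Hochberg adjustment at 0.05. The same test called 67% of all genes tested, so 8 of 9 receptors called is a share not far above the background. The CPM ranges of the 4 LN229 and the 4 U251 controls were apart for the same 8 receptors, as they were for 60% of all genes tested. KIT and FGFR4 in U251 controls had at most 1 and 5 reads, and KDR in LN229 controls at most 7. These genes passed the filter, with its minimum count of 10, through the line where they are high. Their direction was thus set by the filter, and they lend no support to the count of calls. The size of each difference, rather than the number of calls, is what separates the lines here.

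**Figure D1:**
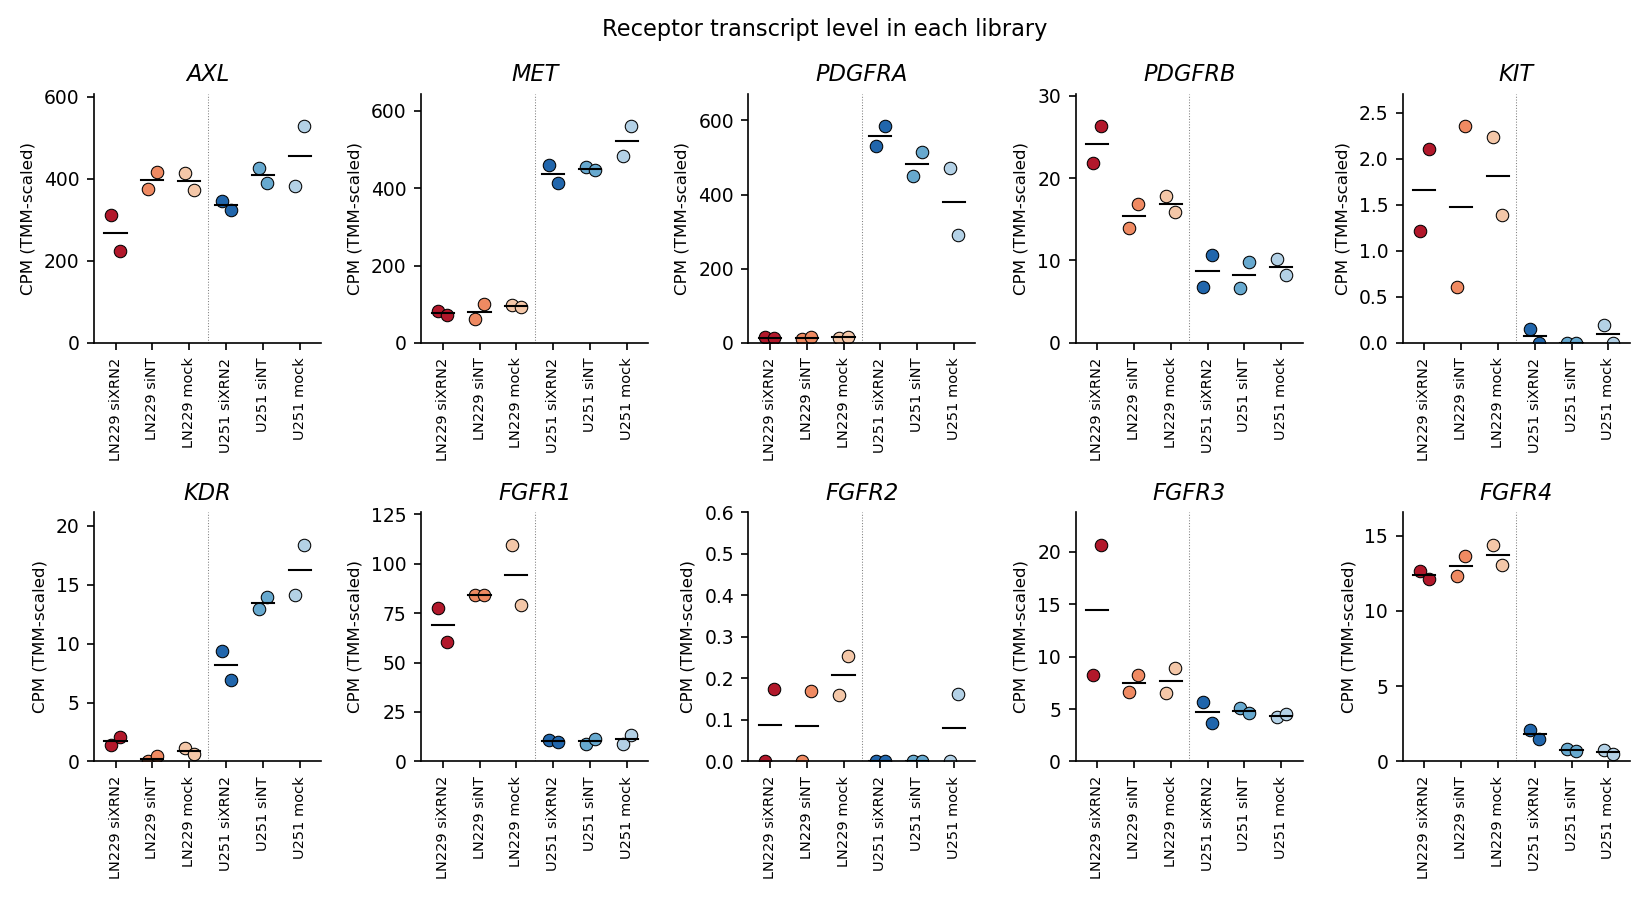
Level of each of the 10 receptor transcripts in CPM (vertical axis, linear and starting at 0, with its own scale in each panel) in the 12 libraries, by group; each point is 1 library and the bar is the group mean. PDGFRA, KDR and MET are higher in every U251 library than in any LN229 library. FGFR1, FGFR4, PDGFRB, FGFR3 and, at few reads, KIT are higher in every LN229 library than in any U251 library. AXL lies between 225 and 529 CPM throughout.

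Levels of different genes can be compared only per length, as CPM per kilobase of annotated exon. In LN229 controls AXL came first with 76.6 ± 4.59 CPM per kilobase (SD, n = 4), then MET with 12.6 ± 2.59, FGFR1 with 7.03 ± 1.09, FGFR4 with 2.77 ± 0.184 and PDGFRB with 2.26 ± 0.231. The ranges of these neighbours in the order did not overlap. FGFR3 with 1.57 ± 0.24 and PDGFRA with 1.46 ± 0.276 CPM per kilobase overlapped, as did KIT, KDR and FGFR2, whose highest control value was 0.424. In U251 controls AXL with 83.9 ± 13.0 and MET with 69.1 ± 7.43 CPM per kilobase overlapped in range, although AXL was above MET in 4 of 4 libraries, and PDGFRA followed with 44.3 ± 10.1. KDR stood at 2.37 ± 0.389 CPM per kilobase. PDGFRB, FGFR3 and FGFR1 followed at 0.837 to 1.22 with overlapping ranges, and FGFR4, KIT and FGFR2 came last. Exon length sums all annotated exons of a gene, so genes with many annotated transcripts, such as FGFR1 with 41 transcripts over 12698 bases, come out low on this scale.

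As a share of the summed per-length level of the 10 genes, AXL made up 73.3% ± 2.19 in LN229 controls, MET 11.9% ± 1.88 and FGFR1 6.70% ± 0.783. In U251 controls AXL made up 41.2% ± 4.25, MET 34.0% ± 2.08 and PDGFRA 22.1% ± 5.80 (SD, n = 4 each). LN229 was thus an AXL-led line with MET and FGFR1 behind, and U251 shared its receptor RNA among AXL, MET and PDGFRA. The sum itself was 105 ± 7.93 CPM per kilobase in LN229 controls and 203 ± 10.3 in U251 controls. AXL was the 448th of 14232 tested genes by per-length level in LN229 controls and the 446th in U251 controls. In bulk RNA, fewer cells that express a gene and less RNA per cell cannot be told apart.

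**Figure D2:**
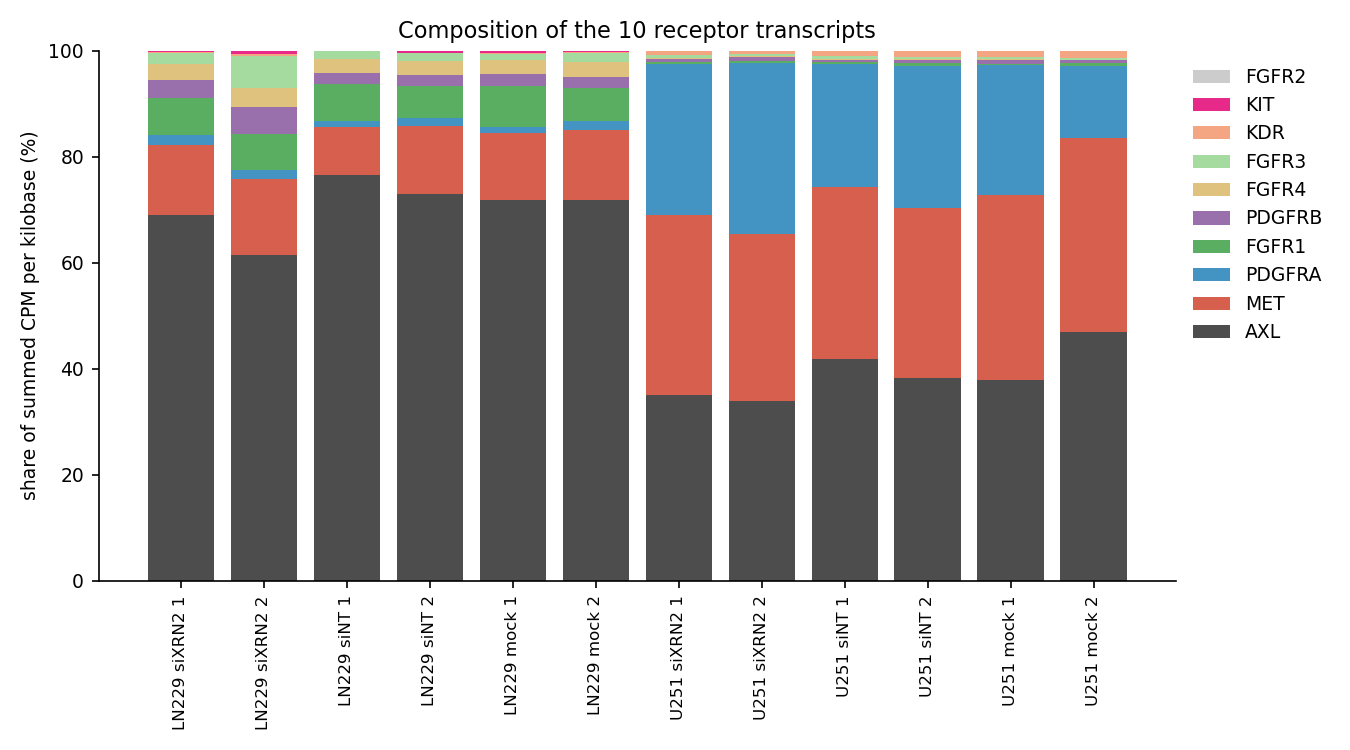
Share of the summed CPM per kilobase held by each of the 10 receptor transcripts (vertical axis, percent) in each of the 12 libraries. AXL fills 61.5% to 76.5% of the LN229 bars and 33.9% to 47.0% of the U251 bars, and the blue PDGFRA block is wide in U251 alone.

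PDGFRA, PDGFRB and KIT encode receptors of one structural class, which bind the platelet-derived growth factors and stem cell factor. PDGFRA (chr4:54229097-54298247, plus strand, GRCh38 positions as in the files) marks the oligodendrocyte precursor lineage. It had 11.1 and 16.3 CPM in LN229 siNT and 13.0 and 16.6 CPM in LN229 mock, against 449.6 and 515 CPM in U251 siNT and 471 and 289.6 CPM in U251 mock. All 4 LN229 controls were far under all 4 U251 controls. The log2 fold change of LN229 over U251 was -4.90 (SE 0.19, edgeR adjusted p = 1.70e-10), which is 29.8-fold lower in LN229. Of its exon reads, 70.1% in LN229 and 71.1% in U251 were counted as unique, and PDGFRA still passed on unique reads alone. PDGFRB (chr5:150113837-150155872, minus strand), a receptor known from pericytes, averaged 16.1 ± 1.65 CPM in LN229 controls and 8.73 ± 1.60 CPM in U251 controls (SD, n = 4 each), a log2 fold change of 0.89 (SE 0.18, edgeR adjusted p = 0.000728). The ranges of the controls did not overlap.

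KIT (chr4:54657918-54740715, plus strand) was close to the detection limit. It had 3 and 14 reads in LN229 siNT and 14 and 11 reads in LN229 mock, against 0 and 0 reads in U251 siNT and 1 and 0 reads in U251 mock. With 42 reads against 1, the ratio of LN229 over U251 controls was 39.2, with an exact 95% interval for counting error of 6.67 to 1587, and edgeR's adjusted p was 0.000378. KDR (chr4:55078477-55125589, minus strand), the main signalling receptor for VEGFA, stood in the opposite direction. It had 0 and 0.505 CPM in LN229 siNT and 1.12 and 0.634 CPM in LN229 mock, against 12.9 and 13.9 CPM in U251 siNT and 14.1 and 18.4 CPM in U251 mock. KDR was thus at the limit of detection in LN229 and clearly read in U251, with a log2 fold change of -4.87 (SE 0.33, edgeR adjusted p = 3.42e-08). Of the 4 endothelial markers tested, 2 were called higher in LN229, the direction opposite to KDR, and 1 was called lower. Their median log2 fold change was 1.49. The gene called lower was CDH5, with a log2 fold change of -2.99 (SE 0.39, edgeR adjusted p = 1.47e-05). The part of these markers in the KDR difference was not tested. Of the exon reads of KDR, 48.6% in LN229 and 72.1% in U251 were counted as unique. On unique reads alone, of which the 4 LN229 controls had 3, the fitted log2 fold change of KDR was -7.34.

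These 3 genes lie in a row, with 359.67 kb between PDGFRA and KIT and 337.761 kb between KIT and KDR, and KIT differed between the lines in the direction opposite to both of its neighbours. The 250 bases before their transcription starts are shown because the genes neighbour each other, yet differ in direction. They are RefSeq sequences on GRCh38.p14, read 5′ to 3′ on the strand of the gene, and capitals mark GGGCGG or its complement CCGCCC, the core of a GC box, searched on both strands.
PDGFRA first start, chr4:54229043-54229292, plus strand: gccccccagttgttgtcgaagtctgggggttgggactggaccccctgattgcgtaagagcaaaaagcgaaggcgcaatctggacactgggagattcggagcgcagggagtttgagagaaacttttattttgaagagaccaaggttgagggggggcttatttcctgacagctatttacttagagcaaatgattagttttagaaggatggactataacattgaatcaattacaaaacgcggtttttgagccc
PDGFRA second start, chr4:54233710-54233959, plus strand: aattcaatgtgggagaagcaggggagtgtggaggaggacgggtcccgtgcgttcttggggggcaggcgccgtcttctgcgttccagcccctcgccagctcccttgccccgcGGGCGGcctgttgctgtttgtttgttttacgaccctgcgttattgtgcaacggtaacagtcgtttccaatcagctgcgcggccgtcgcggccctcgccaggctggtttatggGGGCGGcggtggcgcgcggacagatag
KIT, chr4:54657707-54657956, plus strand: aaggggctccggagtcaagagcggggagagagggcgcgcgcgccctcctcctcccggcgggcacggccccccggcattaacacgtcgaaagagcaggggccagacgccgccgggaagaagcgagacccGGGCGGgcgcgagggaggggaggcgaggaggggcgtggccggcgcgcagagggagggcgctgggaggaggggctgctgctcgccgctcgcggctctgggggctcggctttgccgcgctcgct
KDR, chr4:55125596-55125845, minus strand: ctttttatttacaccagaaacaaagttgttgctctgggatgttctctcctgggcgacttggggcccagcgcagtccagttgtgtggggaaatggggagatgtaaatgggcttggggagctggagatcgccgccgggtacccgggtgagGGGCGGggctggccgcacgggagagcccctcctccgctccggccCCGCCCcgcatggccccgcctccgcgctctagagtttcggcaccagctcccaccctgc
The first PDGFRA window held no GC box core, the second held 2, the KIT window 1 and the KDR window 2. Of 35116 RefSeq windows of the same kind, 42.6% held at least 1. CpG pairs numbered 8 and 25 in the PDGFRA windows, 34 in the KIT window and 17 in the KDR window, against a median of 11 over all windows. These are descriptions of the letters in the windows, and 9 of the 10 receptors had an entry in the table.

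The listed genes around the 3 receptors that could be tested also differed between the lines. Of the 4 genes listed on the PDGFRA side and the 4 on the KDR side of the cluster, 6 passed the filter, and all 6 were lower in LN229 by edgeR's test. GSX2 had no read in LN229 controls, so once past the filter it could only come out lower there. It therefore adds nothing to this count. CHIC2, the gene next to GSX2 upstream of PDGFRA, averaged 8.98 ± 1.82 CPM in LN229 controls and 78.1 ± 6.36 CPM in U251 controls, a log2 fold change of -3.12 (SE 0.14, edgeR adjusted p = 6.26e-10). GSX2, a homeobox gene of the developing forebrain, had 0 reads in the 4 LN229 controls and 43 in the 4 U251 controls, so it was at least 15.3-fold lower in LN229, counting 3 reads over the LN229 group. LNX1 stood at -2.42 (SE 0.32), TMEM165 at -1.83 (SE 0.10), CLOCK at -1.24 (SE 0.14) and SRD5A3 at -0.57 (SE 0.14) on the log2 scale of LN229 over U251. Among the listed genes that were tested, KIT was the exception. FIP1L1, looked at under the other observations, was not in this list. Its exon reads in the LN229 and U251 controls overlapped, so the shared direction holds for the listed genes only. Over the 512 tested genes of chromosome 4, 167 were higher in LN229, 182 were lower, and the median log2 fold change was 7.46e-05. The copy number of the stretch was not measured here.

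**Figure D3:**
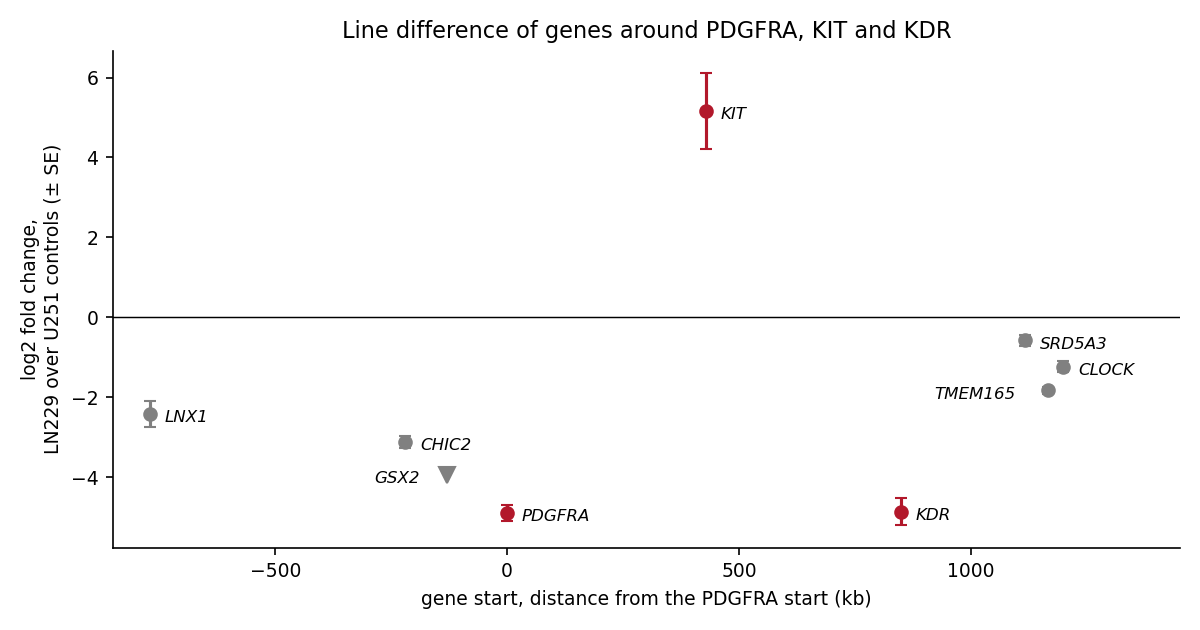
Log2 fold change of LN229 over U251 controls (vertical axis, ± SE) of the listed genes around PDGFRA, KIT and KDR that were tested. The horizontal axis gives the distance of each gene's start from that of PDGFRA in kilobases. Red points are the receptors and grey points their listed neighbours. The GSX2 triangle marks a bound, since GSX2 had no read in LN229 controls. Of these 9 genes KIT alone lies above 0, at 5.16.

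MET (chr7:116672390-116798386, plus strand), the receptor for hepatocyte growth factor, had 61.5 and 99.7 CPM in LN229 siNT and 99.4 and 93.8 CPM in LN229 mock, against 454 and 446 CPM in U251 siNT and 484 and 561 CPM in U251 mock. Its log2 fold change of LN229 over U251 was -2.46 (SE 0.14, edgeR adjusted p = 5.69e-09), which is 5.49-fold lower. The low LN229 siNT library is the first replicate, one of the pair that differed most. AXL (chr19:41219203-41261766, plus strand), a receptor for GAS6 of the TAM family, had 376 and 416 CPM in LN229 siNT and 414 and 373 CPM in LN229 mock, against 427 and 389.8 CPM in U251 siNT and 384 and 529 CPM in U251 mock. The ranges overlapped, and the log2 fold change was -0.13 with a 95% interval of -0.41 to 0.15 (edgeR adjusted p = 0.395). A difference between the lines of more than that interval was not seen, and one within it cannot be told from 0.

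The fibroblast growth factor receptors split by member. FGFR1 (chr8:38411138-38468834, minus strand) averaged 89.2 ± 13.8 CPM in LN229 controls and 10.6 ± 2.26 CPM in U251 controls (SD, n = 4 each), a log2 fold change of 3.06 (SE 0.16, edgeR adjusted p = 2.95e-09) and a fold of 8.34. FGFR4 (chr5:177086886-177098144, plus strand), known mainly from liver and muscle, had 12.3 and 13.6 CPM in LN229 siNT and 14.4 and 13.1 CPM in LN229 mock, against 5 and 4 reads in U251 siNT and 4 and 3 reads in U251 mock. Its log2 fold change was 4.26 (SE 0.23, edgeR adjusted p = 2.97e-09). FGFR3 (chr4:1793307-1808872, plus strand), known for its fusion with TACC3 in a few glioblastomas, averaged 7.59 CPM in LN229 controls and 4.60 CPM in U251 controls, a log2 fold change of 0.73 (SE 0.29, edgeR adjusted p = 0.0407). The FGFR3 call was the least firm: the adjusted p was 0.0586 in DESeq2 and between 0.0665 and 0.133 without any of 7 of the 8 control libraries in turn. FGFR2 (chr10:121478334-121598458, minus strand) had 6 reads in all, 5 of them in LN229, and did not pass the filter.

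Reads in introns, which come largely from unspliced RNA, set the controls of the lines apart in the same direction for 5 of the receptors. Intron reads of PDGFRA averaged 0.975 ± 0.639 RPM (scaled to all gene reads, as CPM is to exon reads) in LN229 controls and 19.3 ± 5.83 in U251 controls (SD, n = 4 each). Those of MET averaged 4.68 ± 2.03 in LN229 controls and 15.1 ± 2.59 in U251 controls. Those of KDR averaged 0.0608 ± 0.122 in LN229 controls and 0.993 ± 0.124 in U251 controls. In the other direction, FGFR1 had 6.55 ± 2.88 in LN229 controls and 0.402 ± 0.236 in U251 controls, and FGFR4 had 0.523 ± 0.235 in LN229 controls and 0.0757 ± 0.0881 in U251 controls. For these 5 genes the control libraries of the lines did not overlap, as for 30.5% of all genes tested, while for PDGFRB, FGFR3, AXL and FGFR2 they did. FGFR4 had 3 and 5 intron reads in LN229 siNT and 3 and 2 in LN229 mock, against 0 and 0 in U251 siNT and 1 and 1 in U251 mock. Its gap thus rests on 2 reads against 1. KDR had 0 and 0 intron reads in LN229 siNT and 0 and 2 in LN229 mock. These counts are near the limit of 3 reads. KIT had no intron read in any control. The antisense gene AC087623.2 overlaps FGFR1, and the kit keeps no strand, but it had 28 exon reads in LN229 against 3138 for FGFR1.

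**Figure D4:**
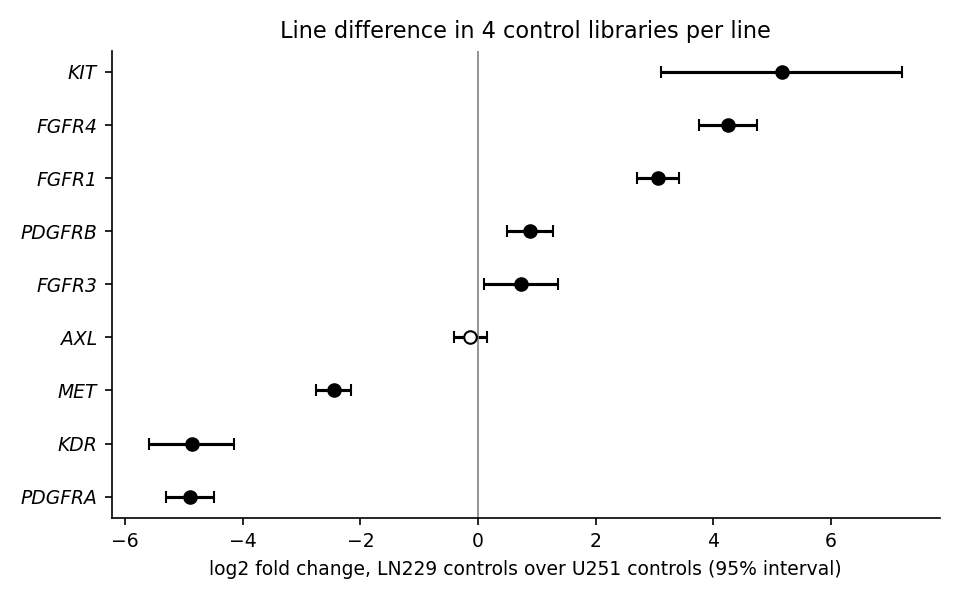
Log2 fold change of LN229 over U251 controls (horizontal axis, bars are 95% intervals from the edgeR fit) of the 9 receptors tested; filled points passed the adjusted threshold of 0.05 and the open point did not. KIT, FGFR4 and FGFR1 lie at 3.06 or above, MET, KDR and PDGFRA lie at -2.46 or under, and AXL spans 0.

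The growth factors of these receptors were split as well. Of 31 ligands, 15 passed the filter, of which 4 were higher and 7 lower in LN229 (73.3% called, with a median log2 fold change of -0.63 against 0.03 over all genes tested). PDGFA, which signals through PDGFRA, averaged 164 ± 20.5 CPM in LN229 controls and 11.4 ± 0.567 CPM in U251 controls, a log2 fold change of 3.84 (SE 0.15, edgeR adjusted p = 1.74e-10), so it was high where PDGFRA was low. PDGFD, which signals through PDGFRB, averaged 3.27 ± 0.587 CPM in LN229 controls and 34.2 ± 6.07 CPM in U251 controls, a log2 fold change of -3.39 (SE 0.18). VEGFA, the ligand of KDR, averaged 67.9 ± 8.32 CPM in LN229 controls and 797 ± 103 CPM in U251 controls, a log2 fold change of -3.55 (SE 0.13, edgeR adjusted p = 9.44e-11), low and high in the same lines as KDR. GAS6, the ligand of AXL, averaged 27.3 ± 3.26 CPM in LN229 controls and 73.4 ± 8.37 CPM in U251 controls, a log2 fold change of -1.43 (SE 0.11). FGF7 had 65 reads in the LN229 controls and 0 in the U251 controls, at least 20.2-fold higher in LN229 counting 3 reads over the U251 group. HGF, the ligand of MET, was at 0 in the controls of both lines.

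Among 12 co-receptors and decoys, 2 of the 9 tested were higher and 6 lower in LN229. NRP2, a co-receptor for VEGF family members, averaged 254 ± 33.9 CPM in LN229 controls and 1467 ± 49.6 CPM in U251 controls, and CD44, a co-receptor of MET, averaged 665 ± 31.5 CPM in LN229 controls and 1829 ± 199 CPM in U251 controls. FGFRL1, an FGF receptor without a kinase domain, averaged 82.9 ± 9.33 CPM in LN229 controls and 243 ± 34.6 CPM in U251 controls, while the syndecan SDC3 was higher in LN229 with a log2 fold change of 1.02 (SE 0.11, edgeR adjusted p = 1.90e-06). Of 21 negative regulators, all tested, 10 were higher and 6 lower in LN229, and those with the smallest p were feedback inhibitors of the MAPK pathway. DUSP4 averaged 173 ± 12.2 CPM in LN229 controls and 2.55 ± 1.54 CPM in U251 controls, and DUSP6 averaged 118 ± 6.35 CPM in LN229 controls and 4.42 ± 1.58 CPM in U251 controls. SPRY2 averaged 111 ± 6.71 CPM in LN229 controls and 8.29 ± 1.55 CPM in U251 controls, and SPRY4 averaged 167 ± 23.5 CPM in LN229 controls and 9.08 ± 5.81 CPM in U251 controls. These 4 are known to be induced by signalling from FGF and other receptors, and their log2 fold changes lay between 3.73 and 6.09. The median was -0.94 for the co-receptors and decoys and 0.21 for the negative regulators, against 0.03 over all genes tested.

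Genes of the signalling core differed in both directions. Of 18 adaptors and proximal effectors, 5 were higher and 6 lower in LN229, with a median log2 fold change of -0.26, led by CRK at -1.11 (SE 0.09), GRB2 at -0.80 (SE 0.09), GAB2 at 1.35 (SE 0.16) and NCK2 at 0.64 (SE 0.10). Of 15 genes of receptor shedding and endosomal sorting, 4 were higher and 6 lower, with a median of -0.16, led by ADAM17, which cleaves receptors off the membrane, at -1.11 (SE 0.14), RAB11A at -0.76 (SE 0.11), USP8 at -0.65 (SE 0.11) and VPS4B at 0.54 (SE 0.11). Of 48 other receptor tyrosine kinases, 28 were tested, and 6 were higher and 17 lower, with a median of -0.64. ERBB3 averaged 477 ± 70.4 CPM in LN229 controls and 0.52 ± 0.162 CPM in U251 controls. FLT1, the other main VEGFA receptor, had 1259 reads in LN229 controls and 1 in U251 controls, the reverse of KDR. NTRK3, a neurotrophin receptor, had 2 reads in LN229 controls and 1396 in U251 controls, and ROS1 averaged 0.586 ± 0.317 CPM in LN229 controls and 17.3 ± 2.91 CPM in U251 controls.

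XRN2 siRNA changed none of the receptors past the threshold in either line. In LN229, 0 of the 9 tested were called against siNT, where edgeR called 3.16% of all genes, and 0 against mock, where it called 1.29%. In U251, 0 were called against siNT, where XRN2 alone was called (0.00703%), and 0 against mock (0.0492%). The difference between the siXRN2 effects in LN229 and U251 called 0 receptors, and 0% of all genes. At an unadjusted p under 0.05, 4 of the 9 receptors in LN229 and 2 in U251 differed against siNT, beside 22.2% and 3.89% of all genes, and 4 in each line differed against mock, beside 16.5% in LN229 and 10.7% in U251. DESeq2 called AXL in LN229 against siNT, beside 773 of 14232 genes, and no other receptor in these contrasts. In LN229 against siNT it gave no adjusted p for KDR, KIT, FGFR3 and FGFR4. Both comparisons of a line share their siXRN2 libraries, so they are not independent. The median log2 fold change of the 9 was 0.04 in LN229 and 0.02 in U251 against siNT, beside -0.000777 and 0.00255 over all genes tested.

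**Figure D5:**
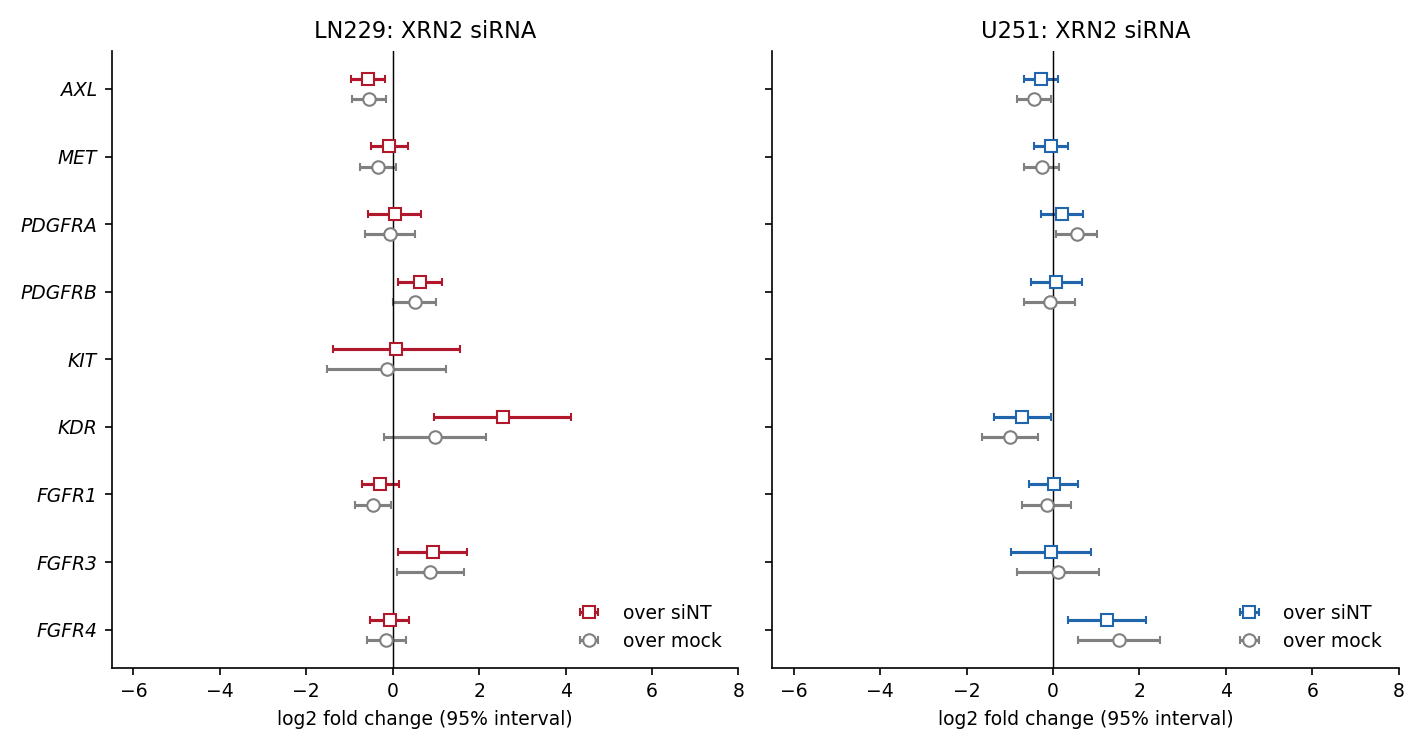
Log2 fold change of siXRN2 over siNT (squares) and over mock (circles) in LN229 and U251 (horizontal axis, bars are 95% intervals from the edgeR fit) for the receptors tested; KIT is left out in U251, where it had at most 1 read per library. AXL lies under 0 in all 4 comparisons, and KDR lies above 0 in LN229 and under 0 in U251; no point passed the adjusted threshold of 0.05.

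In LN229, AXL had the lowest edgeR adjusted p of the receptors against mock, and the lowest after KDR against siNT. It had 311 and 225 CPM in LN229 siXRN2, against 376 and 416 CPM in siNT and 414 and 373 CPM in mock. In U251 it had 346 and 325 CPM in siXRN2, against 427 and 389.8 CPM in siNT and 384 and 529 CPM in mock. In each line both siXRN2 libraries were under all 4 controls. The log2 fold change was -0.56 (SE 0.18) against siNT and -0.55 (SE 0.18) against mock in LN229, with edgeR adjusted p of 0.101 and 0.152, and -0.28 (SE 0.18) and -0.44 (SE 0.18) in U251, with adjusted p of 1 and 0.424. DESeq2 gave an adjusted p of 0.0495 in LN229 against siNT, and a fit of the compared groups alone gave 0.0196 in U251 against siNT. Without the second LN229 siXRN2 library, the lower of the pair, the log2 fold change in LN229 was -0.35 against siNT and -0.34 against mock. Without the first it was -0.82 against siNT, with an edgeR adjusted p of 0.0432. With no filter on low counts the adjusted p in LN229 was 0.0157 against siNT and 0.0169 against mock. In U251 the log2 fold change against mock was -0.66 without the first mock library and -0.19 without the second. Being wholly under the 4 controls was itself common, at 16.9% of all genes in LN229 and 10.6% in U251.

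KDR stood on opposite sides of its controls in LN229 and U251, at low counts and without passing the test. In LN229 it had 10 and 12 reads in siXRN2, against 0 and 3 reads in siNT and 7 and 5 reads in mock, so both siXRN2 libraries were above the 4 controls once scaled for depth. The ratio of summed reads was 6.11 over siNT (exact 95% interval for counting error 1.84 to 31.9) and 1.98 over mock (0.939 to 4.39), and edgeR's adjusted p was 0.0740 and 0.412. In U251 it had 9.36 and 6.92 CPM in siXRN2, against 12.9 and 13.9 CPM in siNT and 14.1 and 18.4 CPM in mock, with log2 fold changes of -0.71 (SE 0.30) and -0.996 (SE 0.30) and edgeR adjusted p of 1 and 0.365. Both U251 siXRN2 libraries were under the 4 controls. The difference between the lines' effects against siNT was 3.25 (SE 0.79) on the log2 scale, with an unadjusted p of 0.00122 and an edgeR adjusted p of 0.526. Without the second LN229 siNT library, which leaves siNT with 0 reads and 1 library assumed to vary like the other groups, the adjusted p of KDR was 0.0136 in LN229 and 0.0192 for that difference. Without the first, the log2 fold change in LN229 was 1.73 with an adjusted p of 0.263, and that difference was 2.45 with an adjusted p of 0.673. Without the second LN229 siXRN2 library the adjusted p in LN229 was 0.475, and with mock in place of siNT the difference between the lines' effects was 1.97. With no filter on low counts the adjusted p of KDR was 0.00876 against siNT in LN229, 0.0149 against mock in U251 and 0.00338 for that difference. The endothelial markers summed to 7.71 and 9.09 CPM in LN229 siXRN2, against 5.08 to 7.04 CPM in its controls, and to 6.98 and 7.43 CPM in U251 siXRN2, against 4.40 to 5.46 CPM in its controls; their part in the KDR values was not tested.

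The platelet-derived growth factor receptors each stood above all 4 controls in 1 line, without passing the test. PDGFRB had 21.8 and 26.3 CPM in LN229 siXRN2, against 13.9 and 16.8 CPM in siNT and 17.8 and 15.9 CPM in mock. Its log2 fold change was 0.64 (SE 0.24) and 0.52 (SE 0.23), with edgeR adjusted p of 0.140 and 0.282, and in U251 it had 6.83 and 10.6 CPM in siXRN2, which overlapped the controls. PDGFRA had 530.1 and 584 CPM in U251 siXRN2, against 449.6 and 515 CPM in siNT and 471 and 289.6 CPM in mock, with log2 fold changes of 0.21 (SE 0.22) and 0.55 (SE 0.22). The low mock library is the second one, from the pair that differed most. Without the first mock library, leaving the low one alone, the difference from mock reached 0.94 with an adjusted p of 0.0284, and without the second it was 0.24. PDGFRA in LN229 siXRN2 lay within the range of its controls, with a 95% interval of the log2 fold change against siNT of -0.56 to 0.65. For KIT in LN229 the 95% interval of the log2 fold change against siNT was -1.37 to 1.55. Wholly higher than the 4 controls were 16% of all genes in LN229 and 13.8% in U251, and of the 9 receptors PDGFRB and KDR in LN229 and PDGFRA and FGFR4 in U251.

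None of the fibroblast growth factor receptors passed the test with siXRN2. FGFR1 had 77.3 and 60.1 CPM in LN229 siXRN2, against 83.9 and 84.2 CPM in siNT and 109.6 and 79.2 CPM in mock. Both siXRN2 libraries were the lowest of the 6, and the log2 fold changes were -0.29 (SE 0.20) and -0.45 (SE 0.20), with edgeR adjusted p of 0.410 and 0.266. FGFR3 had 8.28 and 20.7 CPM in LN229 siXRN2, against 6.66 and 8.25 CPM in siNT and 6.56 and 8.88 CPM in mock. The second siXRN2 library was alone in standing out, with 118 reads against 61 in the first. The log2 fold changes of 0.93 (SE 0.37) and 0.87 (SE 0.36) therefore rest on it, with edgeR adjusted p of 0.165 and 0.240, and without it they were 0.15 and 0.09. Without the first siXRN2 library they were 1.46 and 1.40, with edgeR adjusted p of 0.0177 and 0.0205, and with no filter on low counts the adjusted p was 0.0205 and 0.0424. FGFR4 in LN229 had 12.6 and 12.1 CPM in siXRN2, which overlapped its controls. In U251 it had 14 and 9 reads in siXRN2, against 5 and 4 reads in siNT and 4 and 3 reads in mock, a ratio of 2.42 over siNT (exact 95% interval for counting error 1.08 to 5.93) and 2.97 over mock (1.23 to 8.19), with edgeR adjusted p of 1 and 0.368.

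MET did not pass the test with siXRN2 in either line. It had 81.8 and 71.4 CPM in LN229 siXRN2, against 61.5 and 99.7 CPM in siNT and 99.4 and 93.8 CPM in mock. In U251 it had 459.7 and 412 CPM in siXRN2, against 454 and 446 CPM in siNT and 484 and 561 CPM in mock. In each line both siXRN2 libraries were under both mock libraries and overlapped siNT. The 95% interval of the log2 fold change against siNT was -0.50 to 0.35 in LN229 and -0.45 to 0.36 in U251. In LN229 the log2 fold change itself was -0.35 without the first siNT library and 0.31 without the second, so its sign depended on which siNT library was kept. As shares of the summed per-length level, AXL made up 65.2% ± 5.29 in LN229 siXRN2 and 34.5% ± 0.796 in U251 siXRN2 (SD, n = 2 each), and PDGFRA made up 30.3% ± 2.74 in U251 siXRN2. Control siRNA against mock called 0 receptors in each line, with 0% of all genes called by edgeR in LN229 and 0% in U251, and 647 and 682 genes at an unadjusted p under 0.05; DESeq2 called no receptor there either.

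Of the wider pathway, only a few genes passed the test, all in LN229. Of the 15 ligands tested, FGF1, which binds all FGF receptors, rose with siXRN2, to 9.05 ± 1.09 CPM against 3.20 ± 1.19 CPM in siNT and 3.57 ± 0.382 CPM in mock (SD, n = 2 each). Its log2 fold change was 1.51 (SE 0.29, edgeR adjusted p = 0.0218) against siNT and 1.34 (SE 0.27, adjusted p = 0.0364) against mock. On unique exon reads alone FGF1 passed against neither control, with edgeR adjusted p of 0.144 against siNT and 0.234 against mock. DESeq2 gave no adjusted p for FGF1 against siNT and one of 0.0376 against mock. GAS6, the AXL ligand, fell to 16.2 ± 0.964 CPM in siXRN2, against 28.2 ± 5.15 CPM in siNT, with a log2 fold change of -0.80 (SE 0.17, edgeR adjusted p = 0.0271). Against mock, at 26.3 ± 1.29 CPM, GAS6 stood at -0.70 with an adjusted p of 0.0565. The medians of the ligands were 0.04 against siNT and 0.19 against mock.

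Of the 21 negative regulators, CBLB, a ubiquitin ligase that marks active receptors for removal, rose to 37.6 ± 9.37 CPM in LN229 siXRN2, against 16.3 ± 4.8 CPM in siNT, a log2 fold change of 1.19 (SE 0.27, edgeR adjusted p = 0.0358). Against mock, at 19.8 ± 0.527 CPM, its adjusted p was 0.0983. Of the 28 other receptor tyrosine kinases tested, AATK, a kinase of neural tissue, rose to 31.9 ± 6.94 CPM in LN229 siXRN2, against 9.74 ± 1.63 CPM in siNT and 8.59 ± 0.301 CPM in mock, with log2 fold changes of 1.71 (SE 0.26, edgeR adjusted p = 0.0125) and 1.89 (SE 0.26, adjusted p = 0.00897). EPHA3, an ephrin receptor, fell against mock with a log2 fold change of -1.07 (SE 0.22, edgeR adjusted p = 0.0370) and stood at -0.63 against siNT with an adjusted p of 0.128. FGFRL1 was the 1 co-receptor to pass, against mock, at 48.9 ± 7.20 CPM in siXRN2 and 89.6 ± 2.02 CPM in mock, a log2 fold change of -0.88 (SE 0.16, edgeR adjusted p = 0.0249), and its adjusted p against siNT was 0.0511. No adaptor and no gene of shedding and sorting passed in LN229, and no gene of the 6 lists passed in U251. Each of these calls was lost with a library left out. Such fits leave 1 library in a group, so effect sizes are given. Most calls among all genes were lost too without the second siXRN2, the first siNT or either mock library. The losses there are thus not particular to these genes. Without the second LN229 siXRN2 library the log2 fold change against siNT was 1.39 for FGF1, -0.86 for GAS6, 0.91 for CBLB and 1.48 for AATK. Against mock it was 1.22 for FGF1, 1.65 for AATK, -1.03 for FGFRL1 and -0.73 for EPHA3. Without the first LN229 siNT library GAS6 stood at -0.58 and CBLB at 0.95, and neither passed. Without the first siXRN2 library GAS6 against siNT (-0.75) and FGFRL1 against mock (-0.74) did not pass. Calls among all genes were not fewer in that fit. The 4 calls against mock were also lost without either mock library. Their log2 fold changes were then 1.22 and 1.44 for FGF1, 1.85 and 1.92 for AATK, -0.90 and -0.86 for FGFRL1 and -1.09 and -1.07 for EPHA3. With LN229 fitted alone, edgeR adjusted p was 0.0746 for AATK to 0.129 for GAS6 against siNT and 0.0607 for AATK to 0.151 for EPHA3 against mock. That fit called 1 of 13355 genes in each of these contrasts. In the other direction, against siNT EPHA3 passed without the first siXRN2 library (-1.11, edgeR adjusted p = 0.0161) and FGFRL1 passed in DESeq2 (adjusted p = 0.0148). The difference of these genes' effects between the lines passed for none of the 6 genes named here, with adjusted p between 0.411 and 0.807.

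Within each line, the receptors' levels went along with those of other genes across the 6 libraries. Likeness was the smaller of the Pearson r of log2 CPM within LN229 and within U251, and points in a line share transfections, depth and the siXRN2 contrast. The genes most like AXL were FOSL1, a subunit of the AP-1 transcription factor, with r of 0.98 in LN229 and 0.99 in U251, and the poliovirus receptor gene PVR with 0.99 and 0.98. For MET they were ZNF445 with 0.97 and 0.97 and GTF2A1 with 0.96 and 0.95. For KDR they were DOPEY2 with 0.96 and 0.94 and ITPR2 with 0.95 and 0.94. For the other 6 receptors tested the best gene reached a smaller r of 0.84 to 0.94. Being the best of 14232 genes over 6 libraries, these values are descriptions.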

How the data were processed

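Total RNA of 12 samples went into libraries of the TruSeq RNA LT v2 kit (Illumina), per the labels' protocols, and a MiSeq read them, per the series' design text; the selection of polyadenylated RNA and the lack of strand information are known properties of that kit. Per the file headers, each deposited table gives read counts per gene in whole numbers, split by class (total exon, unique exon, exon-exon, intron). How the authors aligned and counted reads is not given in the sources used here. Although GRCh37 and hg19 stand in the submitters' processing notes, 96.8% of 57836 gene identifiers have the positions of GENCODE on GRCh38, which is the build of the coordinates given.

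Total exon counts as deposited were filtered with filterByExpr (minimum count 10, minimum total 15), which left 14232 genes and 9 of the 10 receptors, scaled by trimmed mean of M-values and fitted with 1 mean per group over all 12 libraries in edgeR 4.0.16 (robust quasi-likelihood, 6 residual degrees of freedom, Benjamini-Hochberg threshold 0.05). Line contrasts used siNT and mock together. The procedure was tested on simulated data. The 10 receptors, 6 gene lists and 5 marker lists were chosen with earlier results of these data known. Up to 4 called genes per list, with the smallest p, are named. Promoter windows are those of RefSeq. Alternatives were DESeq2 1.42.0, its size factors, no scaling factors, other filters, unique reads, a replicate block, other controls, smaller fits and each library left out in turn.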

Additional observations from a re-analysis of the deposited data

How the results depend on the processing

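Across 980 refitted log2 fold changes of single receptors, 954 stayed on their side of the threshold, 16 passed only under the alternative and 10, all of them the FGFR3 difference between the lines, no longer passed. Of the 954, 898 kept their sign and 56 changed it, none of which passed in either fit; 45 of the 56 came from leaving out a library, and in 51 the reported value was within 0.2 of 0. DESeq2 gave no adjusted p for 11 further values, which are not counted. Of 568 refits of the pathway genes named, 36 no longer passed, all of them siXRN2 effects in LN229, 12 passed only under the alternative and 0 changed sign. With a replicate block per line, 8 receptors differed between the lines, beside 9435 of 14232 genes. Replicate numbers did not pair the libraries (correlation of deviations -0.0381 to 0.0657), and with the block the count of receptors called stayed at 0 in each siXRN2 contrast. In LN229 against siNT, 1 receptor was called by DESeq2 (AXL), beside 773 of 14232 genes, where the main fit called 450. With no filter 3 were called (AXL, FGFR3 and KDR), beside 1550 of 23491 genes. Fits with a library left out leave 1 library in a group, so only effect sizes are given for them in this list. Over the settings the log2 fold change ran from -0.82 to -0.35 for AXL, 0.15 to 1.46 for FGFR3 and 1.73 to 6.41 for KDR. In LN229 against mock, 2 were called with no filter (AXL and FGFR3), beside 1026 of 23491 genes, where the main fit called 183. There the log2 fold change ran from -0.81 to -0.34 for AXL and from 0.09 to 1.40 for FGFR3 over the settings. In U251, 1 was called against siNT when the compared groups were fitted alone (AXL), beside 497 of 12779 genes, where the main fit called 1. Against mock 1 was called with no filter (KDR), beside 502 of 23491 genes, where the main fit called 7. The log2 fold change of PDGFRA against mock ran from 0.24 to 0.94 over the settings. The difference of the lines' effects called 1 with no filter (KDR), beside 144 of 23491 genes, where the main fit called 0. For KDR that difference ran from 1.97 to 7.12 over the settings. For control siRNA against mock in LN229 the log2 fold change of MET ran from -0.65 to 0.04 over the settings. The cause of these shifts was not tested. Groups of 2 libraries and few reads for KIT, KDR, FGFR2 and, in U251, FGFR4 limit what could be detected.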

Other observations

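The tables list a gene, AC058822.1, that runs along the plus strand of chromosome 4 from 53377839 to 54295272 and so overlaps PDGFRA, which starts at 54229097 on the same strand. It had 6 and 4 exon reads in the LN229 siXRN2 libraries and 0 in each of the other 10 libraries. Of these 10 reads, 9 spanned an exon-exon junction and 0 were counted as unique. They can therefore not be assigned to this gene rather than to another. FIP1L1, looked at beside it, had 231 to 419 exon reads in each of the 12 libraries, of which 150 to 283 were counted as unique. AC058822.1 did not pass the filter on low counts, was singled out after its values were seen and was not tested.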
